A study of Mus musculus with 16 samples.

Results

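Il9r, Kis2, Ptpru, Adamts3, Col5a3 and Mpzl2 are 6 of the 13652 genes counted in the mouse line AML246, which comes from an acute myeloid leukaemia. They were picked on their measured values, as being among the largest falls on doxycycline or the largest rises after its withdrawal. All 6 were found among the counted genes by matching Entrez numbers to symbols. Cells grew with interleukin-3 in IMDM with 10% foetal calf serum. The series title links the doxycycline schedule to PU.1, restored on the drug and knocked down without it. The labels do not give the allele or hairpin RNA behind that link. RNA sequencing gave 16 libraries in 8 groups of 2, named replicate A and replicate B. They comprised a day 0 group with no treatment, groups given doxycycline at 0.1 µg/mL for 4, 8 or 12 days (days on), Cd11b-high cells sorted after 12 days on, and cells 4, 8 and 12 days after withdrawal (days off, course days 16, 20 and 24). Every group other than the Cd11b-high sort was total viable cells. AML246 is 1 cell line, and the labels do not say whether replicates were separate cultures, so p-values measure a spread between libraries that may be technical.

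PU.1, encoded by Spi1, is an ETS family transcription factor that drives maturation of granulocytes and monocytes, and low PU.1 activity favours myeloid leukaemia in mice. The 6 genes belong to different systems. Il9r encodes the ligand-binding chain of the interleukin-9 receptor, which pairs with the common gamma chain and signals through JAK kinases to STAT factors. Ptpru encodes a receptor-type tyrosine phosphatase of the MAM-domain family, which couples contact between cells to removal of phosphate from tyrosines. Adamts3 encodes a secreted protease that trims the amino-terminal propeptide of procollagens and acts on the lymphatic growth factor Vegfc. Col5a3 encodes a chain of type V collagen, a fibril-forming collagen. Mpzl2 encodes an immunoglobulin-superfamily adhesion protein known from thymic and other epithelia. Kis2 is a long non-coding RNA gene on the X chromosome, known as an insertion site of retroviruses in mouse leukaemia and as the neighbour of the miR-106a-363 cluster of microRNA hairpins.

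Kis2 (chrX:52742563-52744593, GRCm38, minus strand) ended next to 6 hairpin genes on the same strand. The Mir106a hairpin overlapped its end by 5 bases, and Mir18b, Mir20b, Mir19b-2, Mir92-2 and Mir363 began 149, 370, 496, 634 and 795 bases beyond it. RefSeq lists 11 mature arms for these hairpins. Below, 1 arm of each hairpin is shown, so that hairpins with a shared seed can be seen together, and capitals mark the seed, bases 2 to 8. The sequences are from its GRCm38.p6 table, written 5′ to 3′.
mmu-miR-106a-5p: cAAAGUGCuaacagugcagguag
mmu-miR-20b-5p: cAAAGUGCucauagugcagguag
mmu-miR-18b-5p: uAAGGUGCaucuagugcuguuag
mmu-miR-19b-3p: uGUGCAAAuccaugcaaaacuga
mmu-miR-92a-3p: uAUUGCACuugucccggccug
mmu-miR-363-3p: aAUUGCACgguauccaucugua
The 6 arms shown hold 4 seeds. miR-106a-5p and miR-20b-5p share AAAGUGC, which 7 of the 1679 mature mouse microRNAs in the table carry. miR-92a-3p and miR-363-3p share AUUGCAC, which 6 carry. The library counts below are RNA sequencing reads over hairpin genes and not levels of mature microRNA.

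Total counts per library ran from 12962801 to 26509803. Spi1, the targeted gene, followed the schedule in every library. It stood at 56.8 to 66.3 CPM (read counts scaled to library size, with TMM factors) at day 0, at 186 to 248 CPM in the 8 libraries on doxycycline and at 37.2 to 65.0 CPM in the 6 libraries off it. Itgam, which encodes the sort marker Cd11b, averaged 912 CPM in Cd11b-high cells and 694 CPM in total cells at 12 days on. It averaged 1.59 CPM at day 0. The 2 libraries at 12 days off differed most from each other, with a chi-square per gene between replicates of 73.5, against 2.97 to 18.9 in the other 7 groups. The design has no doxycycline-treated cells without a change in Spi1, so doxycycline, PU.1 and maturation cannot be told apart as sources of a difference. In these bulk libraries, fewer cells of a type and less RNA per cell cannot be told apart either.

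All 6 genes stood far lower in all 8 libraries on doxycycline than at day 0, and reads of each gene were still present in every one of those libraries. In all 6 libraries after withdrawal each gene stood above its own levels at 12 days on. For Col5a3 and Mpzl2, the libraries at 4 days off overlapped those at 4 days on. The genes were picked on values of this course, so their own values are given as a description with no test. Il9r had 114 and 76.9 CPM at day 0, 0.307 and 0.202 CPM at 4 days on, 0.676 and 0.446 CPM at 8 days on, and 0.729 and 0.839 CPM at 12 days on. It then had 17.9 and 9.79 CPM at 4 days off, 41.0 and 27.9 CPM at 8 days off, and 23.8 and 31.0 CPM at 12 days off (replicate A first throughout). The Il9r libraries on doxycycline were below every library off it, and the libraries at 8 and 12 days off overlapped. At 4 days on Il9r rested on 13 reads over both libraries, against 3135 at day 0, a ratio of 0.00261 (exact 95% interval 0.00139 to 0.00446, counting error only).

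**Figure D1:**
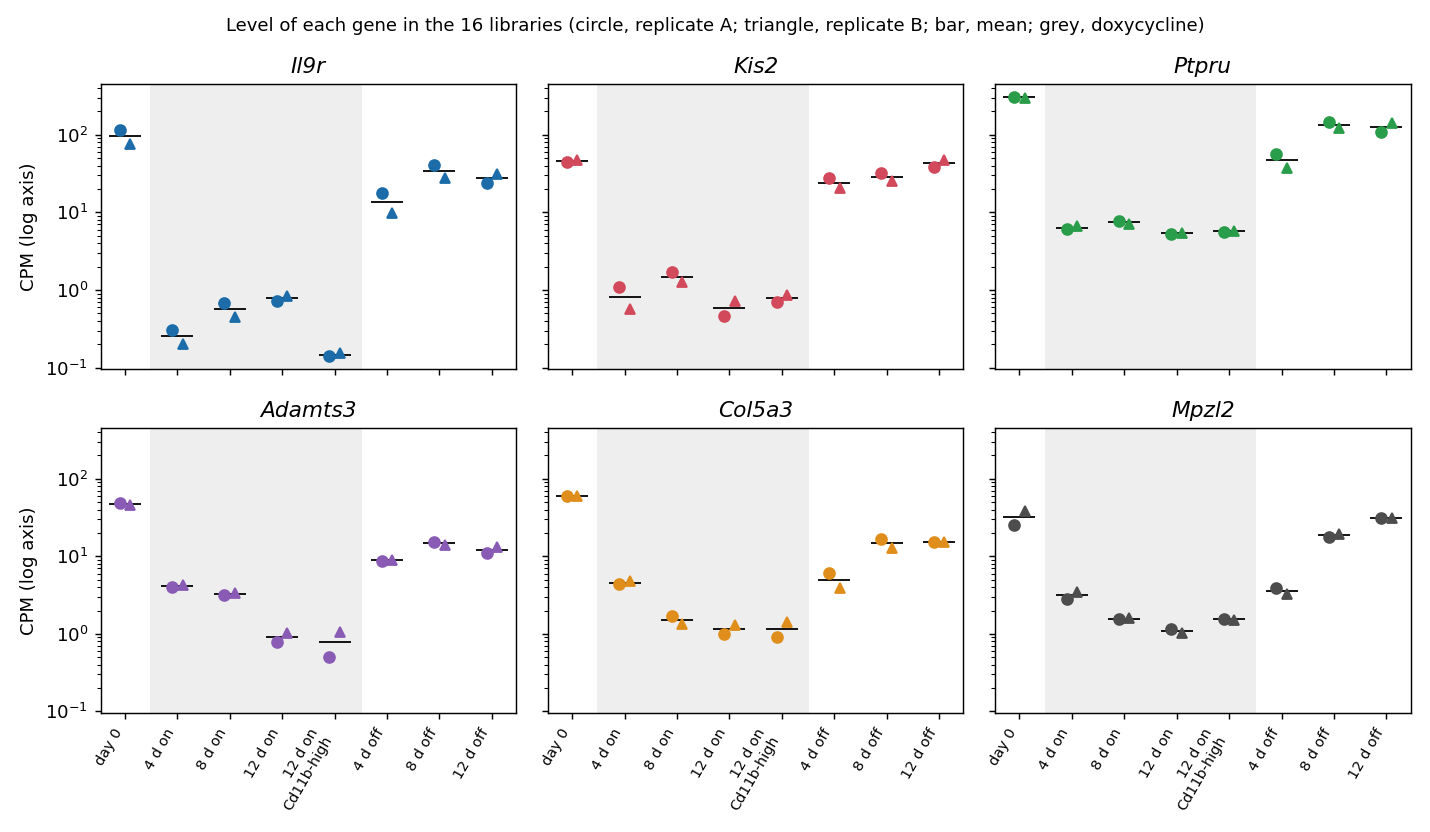
CPM on a log axis for the 6 genes in each of the 16 libraries, with groups in order of the course and a bar at each mean. Every library on doxycycline (grey) lies below every library at day 0, and Il9r in the Cd11b-high cells lies lowest at 0.139 and 0.152 CPM.

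Ptpru had the highest level per length of the 6 at day 0. It had 311 and 299 CPM at day 0, 6.07 and 6.65 CPM at 4 days on, 7.77 and 7.14 CPM at 8 days on, and 5.20 and 5.51 CPM at 12 days on. After withdrawal it had 57.0 and 37.0 CPM at 4 days, 145 and 121 CPM at 8 days, and 108 and 141 CPM at 12 days. Ptpru was thus already at its lower level at 4 days on, and its libraries at 8 and 12 days off overlapped below day 0.

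The 2 matrix genes were lower at 12 days on than at 4, as were Mpzl2 and, by less, Ptpru. Adamts3 had 48.9 and 46.0 CPM at day 0, 4.03 and 4.32 CPM at 4 days on, 3.18 and 3.32 CPM at 8 days on, and 0.775 and 1.04 CPM at 12 days on. It had 8.74 and 9.03 CPM at 4 days off, 15.4 and 13.9 CPM at 8 days off, and 10.9 and 13.0 CPM at 12 days off. Each step on doxycycline was below the one before it with no overlap, and no library off doxycycline reached a day 0 library. Col5a3 had 60.7 and 59.4 CPM at day 0, 4.34 and 4.84 CPM at 4 days on, 1.69 and 1.34 CPM at 8 days on, and 1.0 and 1.32 CPM at 12 days on. It had 6.14 and 3.85 CPM at 4 days off, 16.7 and 12.8 CPM at 8 days off, and 15.2 CPM in both libraries at 12 days off. The Col5a3 libraries at 8 and 12 days off overlapped.

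Mpzl2 had 25.6 and 38.6 CPM at day 0, 2.84 and 3.43 CPM at 4 days on, 1.55 and 1.59 CPM at 8 days on, and 1.14 and 1.04 CPM at 12 days on. It had 3.91 and 3.28 CPM at 4 days off, 17.8 and 19.5 CPM at 8 days off, and 31.1 and 31.6 CPM at 12 days off. The libraries at 12 days off lay between both day 0 libraries. Kis2 had 44.9 and 47.7 CPM at day 0, 1.08 and 0.565 CPM at 4 days on, 1.69 and 1.28 CPM at 8 days on, and 0.456 and 0.719 CPM at 12 days on. It had 27.9 and 20.8 CPM at 4 days off, 32.4 and 25.5 CPM at 8 days off, and 38.5 and 47.2 CPM at 12 days off, where its libraries overlapped those of day 0.

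In the contrast closest to their choice, 12 days on against day 0, the log2 folds were -6.91 for Il9r (SE 0.36), -6.27 for Kis2 (SE 0.28), -5.83 for Ptpru (SE 0.21), -5.69 for Adamts3 (SE 0.22), -5.68 for Col5a3 (SE 0.24) and -4.87 for Mpzl2 (SE 0.22). These are the ranks 15, 20, 26, 30, 31 and 44 among all 13652 genes ordered from the largest fall, so other genes had falls as large. In 12 days off against 12 days on, the log2 folds were 5.11 for Il9r, 6.16 for Kis2, 4.54 for Ptpru, 3.70 for Adamts3, 3.69 for Col5a3 and 4.84 for Mpzl2 (SE 0.20 to 0.36). The rule set no threshold on either fold.

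The genes differed in how far they came back. Mpzl2 stood at 97.7% and Kis2 at 92.5% of their day 0 means at 12 days off. Ptpru stood at 40.8%, Il9r at 28.7%, Col5a3 at 25.3% and Adamts3 at 25.2%. The log2 folds against day 0 were -0.03 for Mpzl2 (SE 0.16) and -0.11 for Kis2 (SE 0.18), with overlapping libraries. They were -1.29 for Ptpru (SE 0.17), -1.80 for Il9r (SE 0.25), -1.98 for Col5a3 (SE 0.19) and -1.99 for Adamts3 (SE 0.17), with no overlap. The order was different at 4 days off, when Kis2 stood at 52.6% of its day 0 mean and the other 5 genes at 8.32% (Col5a3) to 18.7% (Adamts3). Spi1 stood at 60.8, 46.5 and 46.0 CPM on average at 4, 8 and 12 days off.

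**Figure D2:**
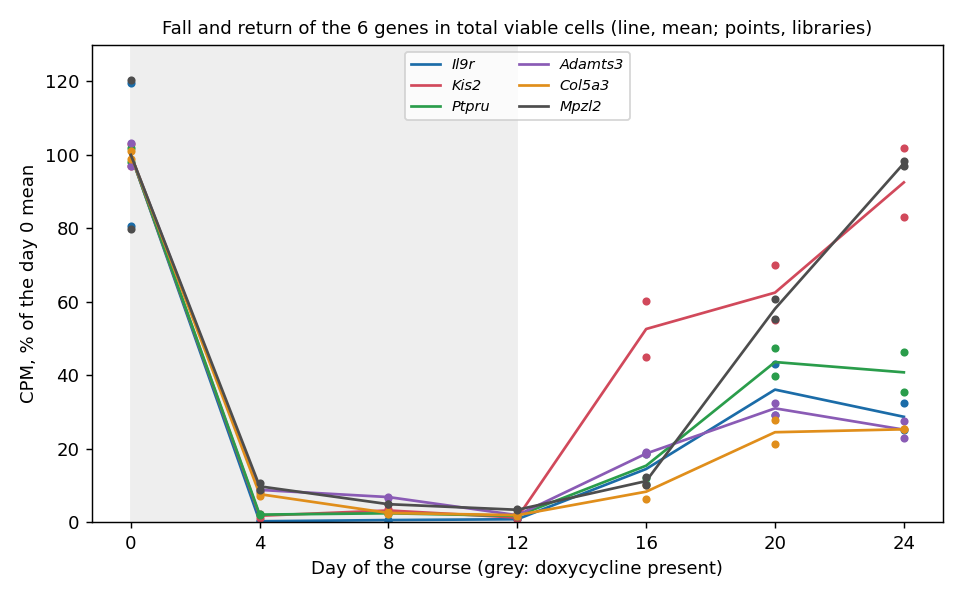
Mean CPM of each gene in total viable cells as a percentage of its day 0 mean against the day of the course, with points for single libraries. Kis2 is the highest line at day 16 at 52.6%, and Mpzl2 and Kis2 end at 97.7% and 92.5% while the other 4 end between 25.2% and 40.8%.

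Levels of different genes were compared per length, as CPM per kb of counted length. At day 0 the order was Ptpru (55.5 ± 1.49), Il9r (30.9 ± 8.46), Kis2 (22.8 ± 0.983), Mpzl2 (9.98 ± 2.85), Col5a3 (9.87 ± 0.156) and Adamts3 (6.19 ± 0.269 CPM per kb; SD, n = 2 each). Of neighbours in that order, Mpzl2 and Col5a3 had overlapping libraries. At 12 days on Ptpru was still highest at 0.973 CPM per kb, followed by Mpzl2 (0.339), Kis2 (0.289), Il9r (0.254), Col5a3 (0.191) and Adamts3 (0.118), where Mpzl2 overlapped Kis2 and Kis2 overlapped Il9r. At 4 days off Kis2 headed the order with 12.0 CPM per kb, and overlapped Ptpru at 8.54. Ptpru (22.7) and Kis2 (21.1) overlapped at 12 days off, as did Mpzl2 (9.75) and Il9r (8.88), above Col5a3 (2.5) and Adamts3 (1.56 CPM per kb).

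The steps of the course between other pairs of groups are given next, from edgeR's quasi-likelihood fit of all 16 libraries. The genes were picked for falling on doxycycline or rising after withdrawal, and their choice may have drawn on any of the 8 groups. The folds of the 6 genes therefore carry an SE and no p, and the counts of genes called (Benjamini-Hochberg adjusted p under 0.05 over all 13652 genes) are printed as a description from which nothing is read. Several of the 5 pairs share the 8-day or the 4-days-off libraries.

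Col5a3 and Mpzl2 were lower at 8 days on than at 4, while Il9r, Kis2 and Ptpru were not. The log2 fold was -1.60 for Col5a3 (SE 0.27), -0.99 for Mpzl2 (SE 0.25) and -0.36 for Adamts3 (SE 0.21). It was 1.11 for Il9r (SE 0.78), 0.84 for Kis2 (SE 0.37) and 0.23 for Ptpru (SE 0.21). Of the 6, 2 were called lower, where 7.16% of all genes were. Libraries of these 2 groups did not overlap for any of the 6, though the Il9r values rest on 13 and 17 reads at 4 and 8 days on. The other 4 genes were not called. With 2 libraries per group, and the share of all genes without overlap not counted, nothing is read from the lack of overlap.

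Adamts3 was lower (log2 fold -2.06, SE 0.27) in Cd11b-high cells at 12 days on than in total cells at 8 days on, a comparison that joins a sort with 4 more days of treatment. It had 0.508 and 1.07 CPM in Cd11b-high cells, against 3.18 and 3.32 CPM at 8 days on. Of the 6, 1 was called lower, where 0.366% of all genes were. The other 5 genes had log2 folds of -1.90 (Il9r, SE 0.92), -0.93 (Kis2, SE 0.38), -0.39 (Ptpru, SE 0.22), -0.38 (Col5a3, SE 0.33) and -0.03 (Mpzl2, SE 0.28). Il9r had 3 reads in each Cd11b-high library. Its 6 reads there, against 37 in total cells at the same 12 days on, gave a ratio of 0.184 (exact 95% interval 0.0635 to 0.44, counting error only). Cd11b-high cells had 5.59 and 5.78 CPM of Ptpru, against 5.20 and 5.51 CPM in total cells at 12 days on. For Mpzl2 the values were 1.57 and 1.52 CPM in Cd11b-high cells, against 1.14 and 1.04 CPM in total cells. For Kis2, Adamts3 and Col5a3 the Cd11b-high and total libraries at 12 days on overlapped.

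The 6 genes differed in size of return at 4 days off against 8 days on. Il9r was 24.6-fold higher (log2 fold 4.62, SE 0.43) and Kis2 16.4-fold higher (4.04, SE 0.26). Ptpru was 6.31-fold higher (2.66, SE 0.20). Col5a3 (3.32-fold, SE 0.28 on the log2 scale), Adamts3 (2.73-fold, SE 0.20) and Mpzl2 (2.29-fold, SE 0.26) were higher by less. All 6 were called higher, where 12.8% of all genes were.

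Set against 8 days on, the folds at 8 days off were 61.0 for Il9r, 19.5 for Kis2, 17.8 for Ptpru, 11.8 for Mpzl2, 9.71 for Col5a3 and 4.52 for Adamts3 (SE of the log2 folds 0.20 to 0.40). All 6 were again called higher, where 25.3% of all genes were. In both comparisons of withdrawn cells with 8 days on, the libraries of the 2 groups did not overlap for any of the 6 genes. The share of all genes without overlap was not counted, and the genes were picked on this course, so nothing is read from it.

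Mpzl2 had the largest step of the 6 between 4 and 8 days off, and Kis2 the smallest. Mpzl2 had 17.8 and 19.5 CPM at 8 days off, against 3.91 and 3.28 CPM at 4 days off (5.16-fold, log2 fold 2.37, SE 0.20). Col5a3 was 2.92-fold (SE 0.21 on the log2 scale), Ptpru 2.83-fold (SE 0.17), Il9r 2.47-fold (SE 0.26) and Adamts3 1.65-fold higher (SE 0.17). The Kis2 log2 fold was 0.25 (SE 0.19), and its libraries overlapped. Of the 6, 5 were called higher, where 11.6% of all genes were.

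**Figure D3:**
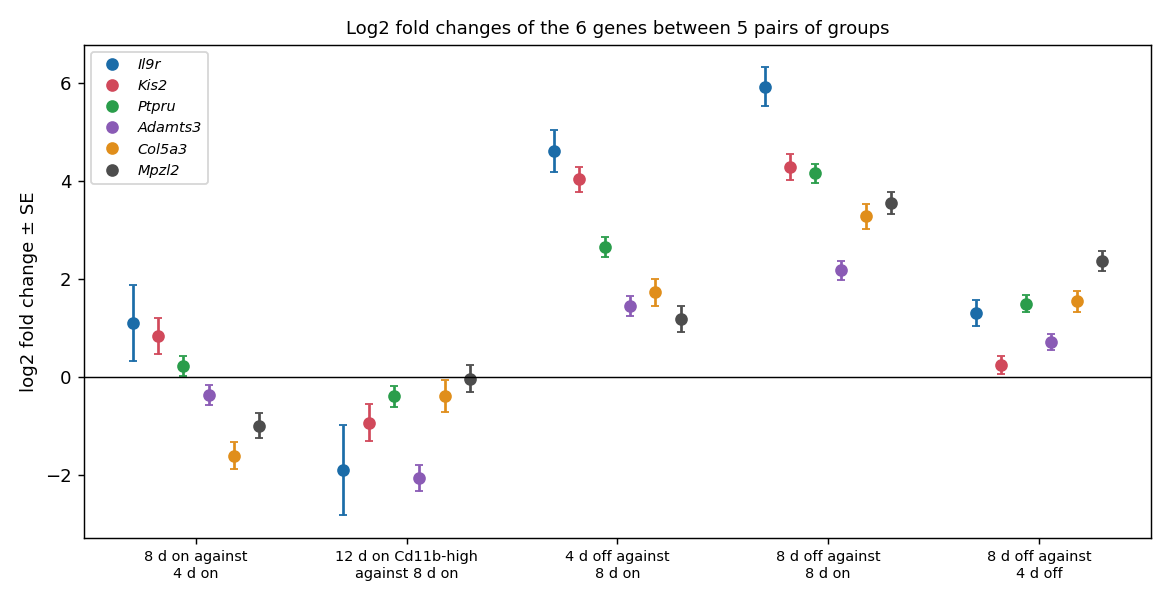
Log2 fold change with its SE for each of the 6 genes in 5 pairs of groups, first-named group over second. In both comparisons of withdrawn cells with 8 days on all 6 points lie above 0, and Kis2 is the lowest point, at 0.25, between 8 and 4 days off.

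The microRNA hairpin genes beside Kis2 had a like course. Their 6 summed levels were 42.1 and 38.9 CPM at day 0, 1.04 and 0.766 CPM at 4 days on, 1.76 and 0.574 CPM at 8 days on, and 0.410 and 0.639 CPM at 12 days on. Cd11b-high cells had 0.462 and 0.507 CPM. After withdrawal the sums were 28.9 and 18.4 CPM at 4 days, 32.6 and 25.0 CPM at 8 days, and 60.8 and 41.9 CPM at 12 days. As for Kis2, all libraries at 4 days off already stood above every library on doxycycline, and 12 days off overlapped day 0 in these sums. Taken singly, Mir18b (9.97 and 6.61 CPM, against 4.24 and 4.94 CPM at day 0), Mir20b and Mir19b-2 stood above day 0 at 12 days off. Mir106a, Mir92-2 and Mir363 overlapped day 0.

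The hairpin genes lie next to Kis2, which was picked on its own course, and were added after values were seen, so they are a description of the same stretch of the X chromosome and no separate support. At 12 days on against day 0, 6 of 6 were called lower, where 33.4% of all genes were. Mir363 had 10 reads at 12 days on and 516 at day 0, a ratio of 0.0132 (exact 95% interval 0.00629 to 0.0244). Mir92-2 had 6 reads at 12 days on and 298 at day 0, a ratio of 0.0137 (0.00499 to 0.0302). Mir19b-2 had 0 reads at 12 days on and 136 at day 0, so it was at least 66.6-fold lower with a floor of 3 reads over the group. In 12 days off against 12 days on, 6 of 6 were called higher, where 32.9% of all genes were. All 6 were also called higher at 4 and at 8 days off against 8 days on, where 12.8% and 25.3% of all genes were. At 8 days on they had few reads over both libraries, from 0 (Mir106a) to 12 (Mir92-2). None was called at 8 against 4 days on, in Cd11b-high cells against 8 days on, or at 8 against 4 days off. In these 3 comparisons 1903, 225 and 3276 of all 13652 genes were called. The labels do not say whether counting used strand, and Mir106a overlaps Kis2, so their reads could be divided between both.

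**Figure D4:**
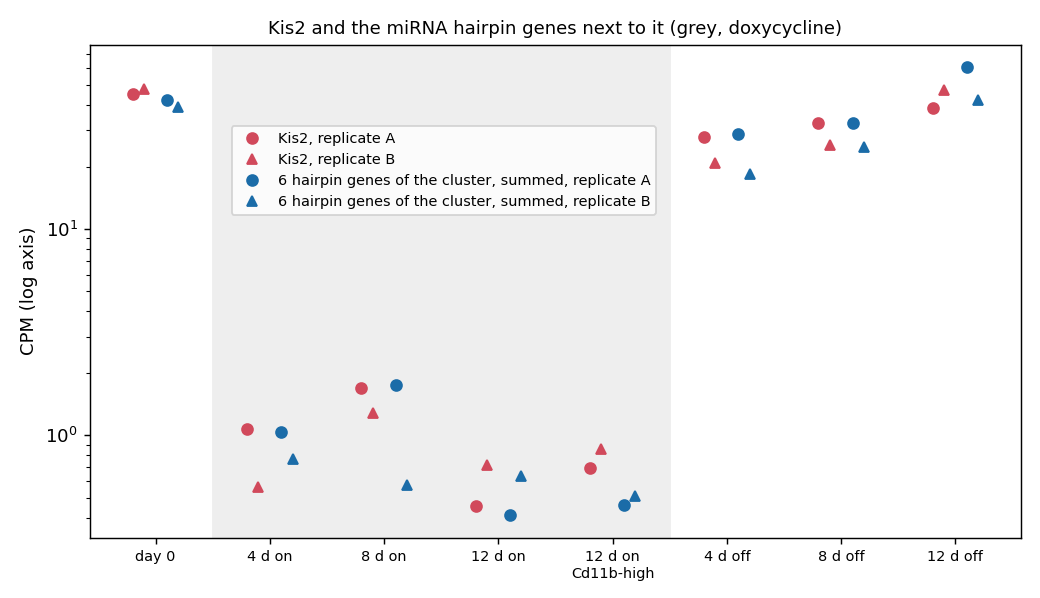
CPM on a log axis of Kis2 and of the sum of the 6 hairpin genes next to it, in each library in order of the course. Both lie at or below 1.76 CPM in all libraries on doxycycline (grey) and between 18.4 and 60.8 CPM in all libraries after withdrawal.

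Mir17hg, the host of the paralogous miR-17-92 cluster, whose microRNAs share seeds with those above, moved the same way over a smaller range. It had 2.33 and 4.08 CPM at 12 days on, against 16.6 and 21.2 CPM at day 0 (log2 fold -2.55, SE 0.26, edgeR adjusted p = 1.1e-06). It had 24.1 and 24.2 CPM at 12 days off, against the same 12-day libraries (log2 fold 2.90, SE 0.26, edgeR adjusted p = 2.2e-07). Mcm7, a replication helicase subunit that hosts another paralogous cluster, was not called in either comparison (log2 folds 0.13 and -0.19, edgeR adjusted p = 0.28 and 0.13).

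Lists of genes from the families, pathways or classes of the 6 held 110 counted genes other than the 6. Of these, 83 (75.5%) were called at 12 days on against day 0, against 63.4% of all genes. There were 46 higher, against 30% of all genes, and 37 lower. At 12 days off against 12 days on 82 were called (74.5%), against 65.3% of all genes, with 33 higher and 49 lower, where 32.4% of all genes were called lower. In 12 days off against day 0 it was 69 (62.7%), against 43.6% of all genes. The comparisons share libraries.

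Of 20 counted cytokine receptor and JAK-STAT genes listed beside Il9r, some of them chains of other receptors, 12 rose and 6 fell at 12 days on against day 0. That is 90% called, against 63.4% of all genes, with a median log2 fold of 0.69, against -0.07 for all genes. Il2rg, the common gamma chain that pairs with Il9r, had 127 and 123 CPM at 12 days on, against 94.3 and 86.7 CPM at day 0 (log2 fold 0.46, SE 0.12, edgeR adjusted p = 0.0034). Jak1, the kinase bound by Il9r, rose 4.24-fold (edgeR adjusted p = 8.3e-09) and Cish, a STAT5-induced inhibitor of cytokine signalling, 4.38-fold (5e-09). Jak3, the kinase of the gamma chain, fell by 0.61 on the log2 scale (edgeR adjusted p = 0.00046). Of the 20, 3 rose and 12 fell at 12 days off against 12 days on (75% called, against 65.3% of all genes, median -0.59, against 0.00 for all genes). Stat3 averaged 91.1 CPM at 12 days off and 295 CPM at 12 days on, and Il15ra, a receptor chain for interleukin-15, averaged 24.4 and 8.14 CPM.

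The list of receptor-type phosphatases other than Ptpru had 11 counted genes, one of which, Ptprcap, encodes a CD45-associated protein and no phosphatase. All 11 were called at 12 days on against day 0 (100%, against 63.4% of all genes), 5 higher and 6 lower, Ptprcap among the lower (median -0.56). Ptprf, an adhesion-type phosphatase, had 3.88 and 4.12 CPM at 12 days on, against 23.2 and 20.6 CPM at day 0 (log2 fold -2.45, edgeR adjusted p = 8.7e-08), and 92.7 and 112 CPM at 12 days off (4.68 against 12 days on, edgeR adjusted p = 1.5e-10). Ptprf was thus above its own day 0 libraries after withdrawal, while Ptpru was below its own. Ptprm, a MAM-domain relative of Ptpru, was lower in both steps, at 1.05 and 1.24 CPM at 12 days on, against 3.26 and 4.57 CPM at day 0, and at 0.393 and 0.365 CPM at 12 days off. Ptprc, the leukocyte antigen CD45, ran opposite to Ptpru, at 68.1 and 65.4 CPM at 12 days on, against 0.163 and 0.148 CPM at day 0. It had 0.393 and 0.410 CPM at 12 days off. Ptpra rose 2.02-fold at 12 days on (edgeR adjusted p = 1.4e-06) and Ptpre was lower at 12 days off against 12 days on (log2 fold -1.42, edgeR adjusted p = 4.2e-07). Of the MAM-domain family, Ptprt stayed under 1 CPM on average in these 3 groups, and Ptprk was not analysed here.

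Of 12 counted ADAMTS and procollagen-processing genes besides Adamts3, 6 rose and 4 fell at 12 days on against day 0 (83.3% called, against 63.4% of all genes, median 0.35). At 12 days off against 12 days on 4 rose and 4 fell (66.7% called, against 65.3% of all genes, median 0.56). Adamts14, a procollagen amino-propeptidase of the same subfamily as Adamts3, had 0.365 and 0.520 CPM at 12 days on, against 5.33 and 3.84 CPM at day 0 (log2 fold -3.36, SE 0.34, edgeR adjusted p = 8.2e-07). It had 9.48 and 12.6 CPM at 12 days off (4.61 against 12 days on, SE 0.31, edgeR adjusted p = 1.3e-08). It thus ended above its day 0 libraries, and Adamts3 below its own. Adamts2, the other member of that subfamily, was not analysed here. Furin, a proprotein convertase, rose 3.36-fold at 12 days on (edgeR adjusted p = 7.4e-08), Adamts10 fell by 1.23 on the log2 scale (2.6e-06), and Flt4, the receptor of Vegfc, averaged 0.844 CPM at 12 days off and 4.81 CPM at 12 days on (1.2e-06).

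Of 26 counted collagen chains and collagen-synthesis genes besides Col5a3, 5 rose, 8 fell and 13 were not called at 12 days on against day 0 (50% called, below the 63.4% of all genes, median -0.23). At 12 days off against 12 days on 12 rose and 6 fell (69.2% called, against 65.3% of all genes, median 0.28). Without replicate B of 12 days on, 11 in place of 18 were called in that comparison. Col5a1, the partner chain of type V collagen, averaged under 1 CPM in these groups, and Col5a2 was not analysed here. Col13a1, a transmembrane collagen, had 2 reads at 12 days on and 186 at day 0, a ratio of 0.00732 (exact 95% interval 0.00088 to 0.0268), and 103 reads at 12 days off. P3h1, a collagen prolyl hydroxylase, averaged 15.8 CPM at day 0, 4.00 CPM at 12 days on and 26.1 CPM at 12 days off (log2 folds of -1.99 for 12 days on against day 0 and 2.71 for 12 days off against 12 days on, edgeR adjusted p = 1.1e-06 and 3.6e-08). Its partner Crtap rose 3.21-fold at 12 days off (edgeR adjusted p = 2.9e-08), and Plod1, a collagen lysyl hydroxylase, 1.90-fold at 12 days on (9.2e-06).

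Markers of fibroblasts and stroma were set beside the matrix genes. Of 14 listed, 5 were counted, and none of the 5 was at 0. They summed to 264 to 298 CPM at day 0, 344 to 346 CPM at 12 days on and 353 to 434 CPM at 12 days off. Most of it was Vim and Pdgfrb. Postn averaged 0.108 CPM at 12 days on and 1.55 CPM at day 0, while Acta2 averaged 3.48 and 1.15 CPM. Of the 5, 2 were higher, 2 lower and 1 not called at 12 days on against day 0 (80% called, against 63.4% of all genes). Basophil and mast cell markers, of which 7 of 12 were counted, summed to 2440 to 3018 CPM at day 0, 2198 to 2211 CPM at 12 days on and 2237 to 2740 CPM at 12 days off. In between they were lower, at 680 to 794 CPM at 4 days on and 1440 to 1534 CPM at 8 days on. Single genes of this list went both ways, with 3 higher and 3 lower at 12 days on against day 0 (85.7% called, against 63.4% of all genes). T, NK and innate lymphoid markers, 10 of 19 counted, summed to 396 to 423 CPM at day 0, 288 to 295 CPM at 12 days on and 203 to 233 CPM at 12 days off. Most of the day 0 sum was Nkg7 and Il1rl1, at 253 and 129 CPM. Of the 10, 3 were called lower and 7 not called at 12 days on against day 0 (30% called, against 63.4% of all genes). These lymphoid markers summed to 147 to 166 CPM at 4 days on and 224 to 247 CPM at 8 days on. Endothelial and epithelial markers, 4 of 11 counted, summed to 541 to 568 CPM at day 0, 1222 to 1276 CPM at 12 days on and 759 to 897 CPM at 12 days off, nearly all of it Pecam1. Megakaryocyte and erythroid markers, 7 of 11 counted, summed to 616 to 742 CPM at day 0, 1113 to 1131 CPM at 12 days on and 415 to 486 CPM at 12 days off. Most of this sum was Itga2b and Tfrc, at 210 and 409 CPM at day 0 and 634 and 437 CPM at 12 days on. Of the 7, 2 were higher, 2 lower and 3 not called at 12 days on against day 0 (57.1% called, against 63.4% of all genes). Myeloid maturation markers, all 18 counted, summed to 3394 to 6174 CPM at day 0, 6872 to 7286 CPM at 12 days on and 4454 to 4631 CPM at 12 days off, most of it Epx, an eosinophil peroxidase that averaged 3433, 4979 and 3861 CPM in these 3 groups and was not called. Gene by gene the list moved more than its sum. At 12 days on against day 0, 13 of 18 were higher and 3 lower (median log2 fold 2.79), against 30% and 33.4% of all genes. At 12 days off against 12 days on 2 were higher and 14 lower (median -4.79), against 32.9% and 32.4%. Most were opposite in direction to the 6 genes. Mpo was not, with averages of 601 CPM at day 0, 30.3 CPM at 12 days on and 427 CPM at 12 days off. Elane and Prtn3 averaged 11.1 and 117 CPM at 12 days on, against 79.5 and 451 CPM at day 0. S100a9, a granulocyte calcium-binding protein, averaged 0.537 CPM at 12 days off and 367 CPM at 12 days on, where it was 54.0-fold above day 0 (edgeR adjusted p = 3e-09). The part of maturation and of other cell types in the values of the 6 genes was not tested.

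Of 21 counted immunoglobulin-superfamily adhesion genes besides Mpzl2, 11 rose and 6 fell at 12 days on against day 0 (81% called, against 63.4% of all genes, median 0.71). In 12 days off against 12 days on 3 rose and 12 fell (71.4% called, against 65.3%, median -0.58). Mpzl1, the nearest counted relative of Mpzl2, had 4.88 and 4.00 CPM at 12 days on, against 9.84 and 6.86 CPM at day 0 (log2 fold -0.93, SE 0.22, edgeR adjusted p = 0.0017). It had 14 and 14.7 CPM at 12 days off (1.70 against 12 days on, SE 0.21, edgeR adjusted p = 5.6e-06). Mpzl3 was not analysed here. F11r, a tight-junction adhesion protein, rose 4.00-fold and Icam1, an integrin ligand, 8.09-fold at 12 days on (edgeR adjusted p = 6.4e-09 and 9.8e-09). Alcam, an adhesion protein of activated leukocytes, had 0 reads at 12 days off and 242 at 12 days on, at least 72.7-fold lower. Vcam1, another integrin ligand, averaged 11.1 CPM at 12 days off and 133 CPM at 12 days on, and L1cam 1.99 and 13.3 CPM.

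Of 21 counted microRNA host and insertion-site genes besides Kis2, 8 rose and 7 fell at 12 days on against day 0 (71.4% called, against 63.4% of all genes, median 0.13). In 12 days off against 12 days on 7 rose and 9 fell (76.2% called, against 65.3%, median -0.24). Evi5, a common viral insertion site, rose 4.68-fold, and Hhex and the cyclin gene Ccnd3 2.52-fold each, at 12 days on (edgeR adjusted p = 1.1e-07, 2.1e-07 and 2.8e-07). Myc averaged 455 CPM at 12 days off and 183 CPM at 12 days on, and Lmo2 25.2 and 65.7 CPM.

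**Figure D5:**
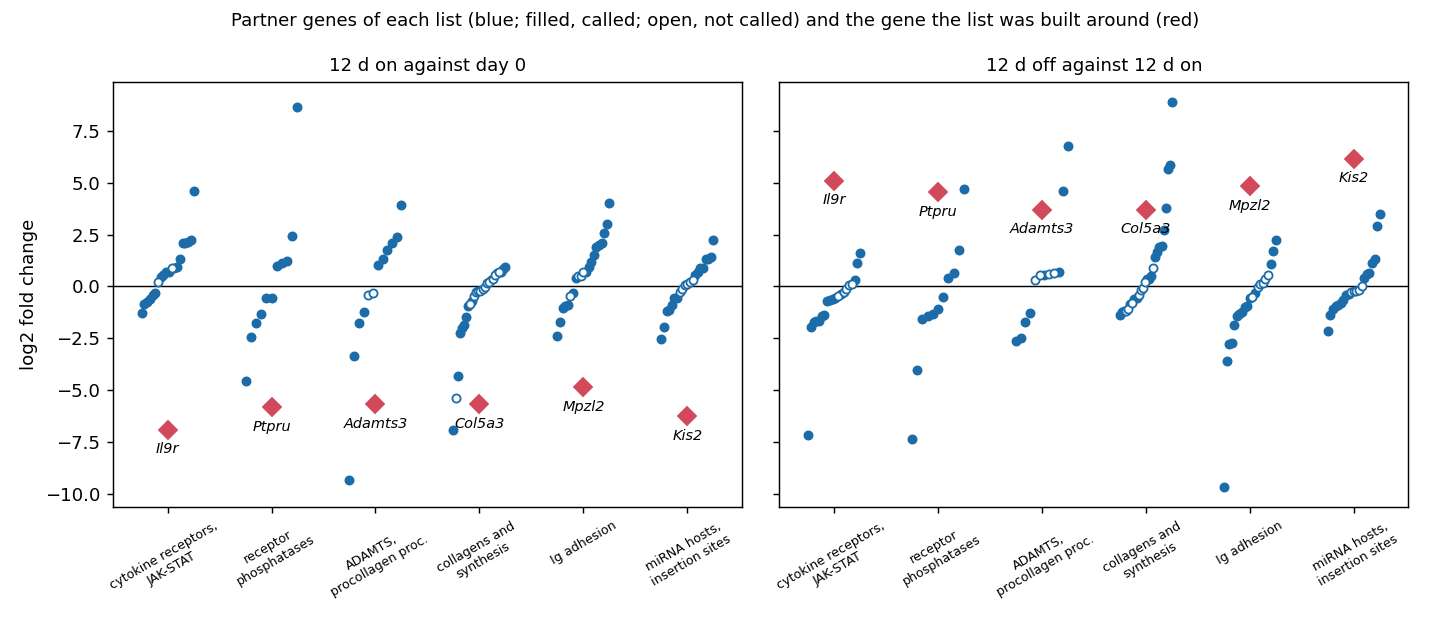
Log2 fold changes of the counted genes of each of 6 lists (blue, filled where called) and of the gene each list was built around (red diamonds), at 12 days on against day 0 and at 12 days off against 12 days on, which share the 12-day libraries. Each list holds blue points on both sides of 0 in both panels, and fitted folds of genes with 0 to 3 reads in a group, such as Alcam, depend on the fit and are no measured size.

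The courses of the 6 genes were alike, as their choice entails. Pearson's r of log2(CPM + 1) over the 16 libraries ran from 0.86 (Kis2 and Col5a3) to 0.99 (Il9r and Ptpru) between them. The libraries fall into groups on and off doxycycline, so r is given as a description. Over 11200 genes the closest to Il9r were Ptpru (r = 0.993) and Dmpk, a myotonic dystrophy protein kinase (0.990), and the closest to Ptpru after Il9r was Trpv4, a calcium-permeable channel (0.992). The closest to Kis2 were 2 hairpin genes of its own cluster, Mir92-2 (0.993) and Mir363 (0.992). Adamts3 was closest to Prob1 (0.980) and Rint1 (0.979), Col5a3 to Flcn (0.990) and Fam122a (0.982), and Mpzl2 to Maoa, a monoamine oxidase (0.985), and Trmt5, a tRNA methyltransferase (0.980). Likeness in course did not mean likeness in size. Rint1 averaged 53.0 CPM at 12 days on and 112 CPM at day 0, where Adamts3 averaged 0.907 and 47.4 CPM.

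The promoters of Il9r and Ptpru are shown because this pair was the most alike in course. Each is 300 bases, 250 before to 50 after the start in RefSeq (GRCm38.p6, minus strand), at chr11:32200230-32200529 for Il9r and chr4:131838229-131838528 for Ptpru. For Il9r the start used by that table lies 5004 bases inside the outer end of the gene's annotated span, so this window is at 1 of its starts, and the one in use in these cells was not examined. Capitals mark matches to the motifs searched.
Il9r: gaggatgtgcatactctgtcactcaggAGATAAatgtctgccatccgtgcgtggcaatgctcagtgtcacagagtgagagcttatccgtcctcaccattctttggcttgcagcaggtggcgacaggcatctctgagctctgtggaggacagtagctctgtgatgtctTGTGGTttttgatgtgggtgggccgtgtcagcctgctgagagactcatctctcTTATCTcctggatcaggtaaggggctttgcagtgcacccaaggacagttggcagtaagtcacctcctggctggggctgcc
Ptpru: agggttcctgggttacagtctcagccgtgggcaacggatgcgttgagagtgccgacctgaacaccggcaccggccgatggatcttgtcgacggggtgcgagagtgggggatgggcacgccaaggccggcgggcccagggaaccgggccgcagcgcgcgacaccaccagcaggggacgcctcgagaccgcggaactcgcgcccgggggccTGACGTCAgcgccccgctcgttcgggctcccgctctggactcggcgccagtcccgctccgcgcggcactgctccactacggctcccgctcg
Of the 6 genes, 5 were in the promoter table, and Mpzl2 was not. GC content was 54.3% in Il9r and 72.3% in Ptpru, with 5 and 40 CpG dinucleotides, against medians of 52.7% and 7 over all 32851 promoters. The GC content was 63.3% in Col5a3 and in Kis2 and 77.3% in Adamts3. Motifs were searched on both strands. The ETS-type letters GAGGAA and GGAAGT were in 0 of the 5 promoters, and 28.3% and 23.8% of all promoters hold them. This says only that these letters are not in these windows. The GATA-type letters AGATAA matched at -223 and, on the other strand as TTATCT, at -30 in Il9r (11.2% of all promoters), counted from the start to the first base. The RUNX-type TGTGGT matched at -83 in Il9r (16.8%), and the cyclic AMP response element TGACGTCA at -41 in Ptpru (1.79%). The E-box CAGCTG (16.3%) and CCAAT (37.4%) matched at -81 and -122 in Col5a3, and TATAAA (13.6%) in 0 of the 5. A match is a description of letters and not a bound site.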

How the data were processed

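Read counts per Entrez gene were deposited, 1 file for each of 16 libraries, per the file headers, with gene lengths that served for CPM per kb. FACS-sorted pellets gave total RNA and libraries were run on a NextSeq500, per the labels' protocols. featureCounts, edgeR, limma and mm10 are named in the submitters' processing notes, without versions or roles. The aligner and strand setting are not given in the sources used here. Genes low throughout were left out by the authors before deposit, since 3 or more libraries were above 0.5 CPM for each gene present. Symbols came from RefSeq GRCm38 tables and matched 13216 of 13652 genes. Rows that lacked a gene number amounted to 0.

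Libraries were grouped by their titles. Counts were scaled by TMM (factors 0.924 to 1.05) and fitted with edgeR 4.0.16 (limma 3.58.1, R 4.3.3), by the robust quasi-likelihood test with 8 residual degrees of freedom (common biological coefficient of variation, 10.9%). The filter filterByExpr removed 0 genes. Folds of the members carry no p, since they were picked on these libraries. Calls used a two-sided Benjamini-Hochberg adjusted p under 0.05 over all genes. SE is the log2 fold over the square root of F. The script was tested on simulated data. Counting intervals are exact at 95%, and the floor is 3 reads over a group.

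The members and lists were chosen with earlier results of these data known. Named genes were the 6 members, Spi1, Itgam, the 3 called genes per list with the lowest adjusted p in each of 2 comparisons (mean of 1 CPM or more), the 2 genes most alike to each member, and the closest family members. A gene that met this rule is not reported here. The hairpin genes, chromosomal neighbours and a few marker genes were added after seeing values. Alternatives were DESeq2 1.42.0, limma-voom, RLE size factors, scaling by library size alone, omitting the filter, fitting the compared libraries by themselves, a replicate block, and each library left out in turn. A fit without both libraries at 12 days off was added after seeing the data.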

Additional observations from a re-analysis of the deposited data

How the results depend on the processing

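Fitted without both libraries at 12 days off, whose replicates differed most, the 5 member counts were unchanged in number. The replicate block gave 2, 1, 6, 6 and 5 members called in the 5 pairs of groups whose counts are given as a description, as without it, and 8806 genes called at 12 days on against day 0, against 8654. Same-lettered libraries deviated together (r over 0.1) in 9 of 28 pairs of groups, so the letters were not taken as pairs. Members called at 8 against 4 days on were 2, against 1 with limma-voom and 1 to 2 when each library was left out (Mpzl2 was lost without replicate B of 4 days on and without either replicate of 8 days on). Adamts3 at 8 against 4 days off was not called without replicate A of either group. In Cd11b-high cells against 8 days on they were 1, against 2, with Kis2, in a fit of the 4 libraries alone. Member log2 folds at 12 days on against day 0, and at 12 days off against each of these, were also refitted. Counted per member, comparison and alternative, they moved by more than the spread between libraries in 13 cases. In 185 cases they stayed within it. No alternative run turned a member's direction in a called comparison. The members were picked on these same libraries, so these runs show dependence on the processing and are no test of that direction.

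Counts over all genes moved more. At 8 against 4 days on, 1903 genes were called, 2888 with the 4 libraries alone, 3445 without both libraries at 12 days off and 590 to 1217 with each library left out. In Cd11b-high cells against 8 days on, 225 were called, 436 with DESeq2, 3306 with the 4 libraries alone, 1234 without both libraries at 12 days off and 47 to 71 with each left out. At 4 days off against 8 days on, 3501 were called, and 1656 to 2872 with each left out. At 8 against 4 days off, 3276 were called, 5205 without both libraries at 12 days off and 1532 to 2027 with each left out. At 12 days off against day 0, 5950 genes and 69 list genes were called, against 2160 and 40 with the 4 libraries alone. Of the 12 genes named as most alike, 3 were named again from the 8 group means and 5 with a pseudocount of 0.1 CPM. Library size alone moved the median log2 fold of all genes to -0.20 at 12 days on against day 0 and to 0.11 at 12 days off against 12 days on. The causes of these shifts were not tested. Values under 1 CPM, such as Il9r on doxycycline, rest on few reads.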

Other observations

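The nearest counted genes on either side of each of the 6, microRNA genes aside, were examined by a rule of position added after seeing the data. At 12 days on against day 0, 3 of the 12 neighbours were called higher, 5 lower and 4 not called, where 63.4% of all genes were called in either direction, a share near theirs. At 12 days off against 12 days on 6 were higher, 4 lower and 2 not called, where 65.3% of all genes were called. Snrnp25, a spliceosome gene 131 bases from the outer end of Il9r, averaged 39.7 ± 1.55 CPM at 12 days on and 121 ± 0.184 CPM at day 0 (SD, n = 2 each; log2 fold -1.61, edgeR adjusted p = 6.1e-06). Mecr, 5.14 kb from Ptpru, averaged 21.8 ± 0.461 CPM at 12 days on and 57.1 ± 4.86 CPM at day 0 (-1.39, edgeR adjusted p = 6.7e-07). Shfl, 53.5 kb from Col5a3, averaged 3.57 ± 0.0892 CPM at 12 days on and 14.2 ± 1.28 CPM at day 0 (-1.99, edgeR adjusted p = 3.2e-07). Mbnl3, 1537 kb from Kis2, was higher at 12 days on (0.97, edgeR adjusted p = 0.00013). Gm14586, 27.7 kb away on the other side of Kis2, was lower (-0.99, edgeR adjusted p = 0.00044). Dck and Cox18, 891 and 331 kb from Adamts3, had log2 folds of 1.06 and 0.04 (edgeR adjusted p = 8.4e-06 and 0.81). Jaml, 25.1 kb from Mpzl2, was higher at a low level (1.16 CPM at 12 days on, 0.182 CPM at day 0, log2 fold 2.59, edgeR adjusted p = 0.00047).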
